A study of Brassica napus with 6 samples.

Results

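The 200 genes described here were the abundant seedling-preferred genes of the oilseed rape (Brassica napus) hybrid HZ62. They were chosen by their measured values in the deposited table of normalised expression. A gene was kept when its mean over the 2 seedling libraries was at least 4 times both the silique mean and the flower bud mean, and when it had a value above 0 in at least 1 silique or flower bud library. This left 3276 of the 80932 listed genes, and the 200 with the highest seedling mean were taken. High seedling values, and low values elsewhere, are therefore how the genes were found and not a result.

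PolyA RNA was sequenced from seedlings at 2 weeks, siliques 3 to 5 cm long and flower buds under 2 mm, with 2 libraries for each tissue. All libraries carry the genotype label WT, and all plants were kept at 22 °C for 16 h of light and at 18 °C for 8 h of dark. The labels are silent on whether replicates were separate plants and on pooling. A p-value here thus measures only how far these particular libraries lie apart, which may be technical. The design also covers both parental lines, and these were not analysed here.

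Oilseed rape is an allotetraploid, and many of its genes exist as related copies in the A subgenome, shared with Brassica rapa, and in the C subgenome, shared with Brassica oleracea. Young seedlings contain much green tissue. In green leaves the nuclear genes for light harvesting, carbon fixation and photorespiration are known to be among the most abundant messages. Siliques have a green wall that also photosynthesises, while a small flower bud holds mainly dividing and differentiating floral organs. Which of the 200 genes have such roles is not stated here: the files give identifiers only, and 0 of the 95143 identifiers matched the available table of named genes, which describes the Da-Ae assembly. For the same reason the tissue labels could not be checked against marker genes, and no sequences are shown. In whole tissues, a larger share of cells that express a gene and more RNA per cell cannot be told apart.

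Depth differed most between the seedling libraries. Seedling replicate 1 held 24110359 reads and replicate 2 held 3973408, against 10359099 to 12614212 in the other 4 libraries. Most gene counts were even numbers: among genes with at least 1 read, 82.1% to 89.3% of the counts were even, and 584 genes had 1 read while 6029 had 2 reads in seedling replicate 2. The sources used here do not say how read pairs were counted. Where reads come in pairs, counting error is larger than the read numbers imply.

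By the way they were chosen, the 200 genes took a larger share of reads in seedling than elsewhere. They made up 8.60% of the reads in seedling replicate 1 and 13.4% in replicate 2, against 1.79% and 1.80% in silique and 1.0% and 0.934% in flower bud. The 200 silique-preferred genes found by the same rule took 3.13% and 3.05% of silique reads. The flower-bud-preferred set took 3.00% and 3.16% in flower bud. Seedling means of the seedling-preferred genes ranged from 150 to 4840 with a median of 303, in normalised values of the authors. These carry TMM factors (a trimmed mean of log ratios between libraries) and are not divided by gene length. The median was 46.2 in silique and 29.8 in flower bud. Most of the genes were also expressed outside the seedling: 155 of the 200 genes had a mean of at least 10 in both silique and flower bud. In 5 genes both of these means were under 1.

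**Figure D1:**
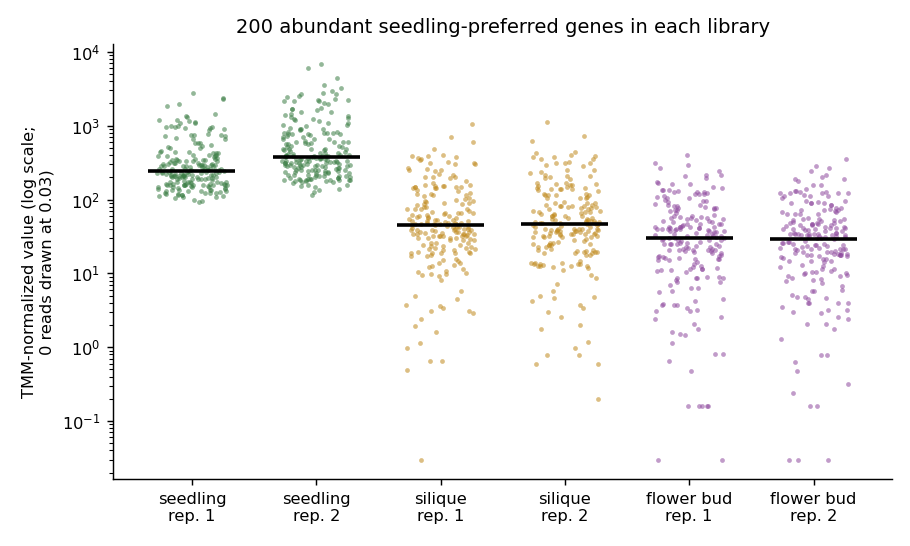
Each point is 1 of the 200 genes in 1 library, on a log axis of TMM-normalised values; black bars are medians and genes with 0 reads are drawn at 0.03. The seedling medians are 244 in replicate 1 and 377 in replicate 2, while the silique medians are 44.7 and 46.0 and the flower bud medians 30.4 and 29.6.

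How strongly the genes preferred the seedling varied widely. The ratio of the seedling mean to the higher of the other means had a median of 6.08 and ran from 4.01 to 465. It lay under 5 in 64 genes, between 5 and 10 in 82, between 10 and 20 in 33, between 20 and 100 in 14 and at 100 or more in 7. The median ratio was 5.17 among the 50 highest seedling means and 7.32 among the 50 lowest, and a ratio of at least 20 occurred in 1 of the first 50 and in 11 of the last 50. Sets found by the same rule in the other tissues had median ratios of 9.67 for 200 silique-preferred genes and 18.2 for 200 flower-bud-preferred genes. At 100 or more stood 7 seedling-preferred, 41 silique-preferred and 61 flower-bud-preferred genes. These ratios come from the values that chose each set and carry no test.

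The gene with the highest seedling mean was ZS11C03G073320, on chromosome C3 from 61201648 to 61202736 on the plus strand. Positions here are those of the deposited count table, counted from 1. No source used here names the genome build. The gene stood at 2782 and 6897 in seedling, 1059 and 1108 in silique, and 315 and 284 in flower bud. Its 2 seedling libraries lay far apart. Both were above every other library, as in all 200 genes, which the rule favours. ZS11C04G013970 on chromosome C4 came next, with 2338 and 5986 in seedling, 609 and 614 in silique, and 399 and 358 in flower bud. Its position on C4 is not in the count table, which stops inside C3 and holds 130 of the 200 genes.

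The gene models of the 130 genes in the count table spanned 624 to 55305 bp with a median of 2668 bp, introns included. The median was 2697 bp for 379 other genes with a seedling mean at least as high and 2286 bp for all 51324 genes of both tables. Per kb of gene model, the seedling mean ranged from 4.21 to 4444 with a median of 127. ZS11C03G073320 had the highest level per kb, 4444, and ZS11A08G022310 on chromosome A8 (17811448 to 17812543, minus strand) the next, 2890. The 2 models had nearly the same length, 1089 and 1096 bp. ZS11A08G022310 stood at 1849 and 4486 in seedling, 711 and 718 in silique, and 120 and 111 in flower bud. Its order of tissues was that of ZS11C03G073320 and of most of the set. The rule puts seedling first, and silique was above flower bud in 169 of the 200 genes.

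Models of 10 kb or more were found for 5 of the 130 genes. ZS11A07G010690 on chromosome A7 (11366033 to 11421337, plus strand) had the longest model, 55305 bp, and the lowest level per kb, 4.21. It stood at 162 and 305 in seedling, 22.5 and 22.5 in silique, and 8.19 and 8.28 in flower bud. Overlap with another gene model occurred in 22 of the 130 genes (16.9%), against 17.0% of all genes of both tables. No source used here says if strand was used in counting, so the levels of overlapping genes are uncertain.

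The rule drew a line through a continuous range. The last genes inside, ZS11A08G024560 and ZS11C06G001960, had seedling means of 150.81 and 150.35. The next genes, ZS11A07G026690 and ZS11C06G020950, had 149.98 and 149.53. Close to the ratio of 4 lay ZS11A06G005360 at 4.007 and ZS11C04G060580 at 4.030 on the inside, and ZS11C07G024810 at 3.994 and ZS11A01G011770 at 3.975 on the outside. Of the 795 genes with a seedling mean at least that of the last gene taken, 200 met the rule, which is 25.2%. A further 108 had a ratio from 3 to under 4, and 1 met the ratio but had no read in any silique or flower bud library.

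Seedling replicate 2 was higher than replicate 1 in most of the 200 genes. This held for 184 of them, the median of replicate 2 over replicate 1 was 1.71, and 63 genes reached a ratio of at least 2. Across the 18962 genes with a seedling mean of at least 10, the same ratio had a median of 0.996, and 49.5% were higher in replicate 2. The 595 other genes that were as abundant in seedling leaned the same way, with a median of 1.48 and 497 of 595 higher in replicate 2. Within the 200 genes the median ratio was 2.09 in the 50 highest seedling means and 1.5 in the 50 lowest. The choice and rank of the genes use these same libraries, so a high value in replicate 2 also raises the rank. Replicates of the other tissues lay closer: for the same genes the median ratio was 1.01 in silique and 0.936 in flower bud.

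**Figure D2:**
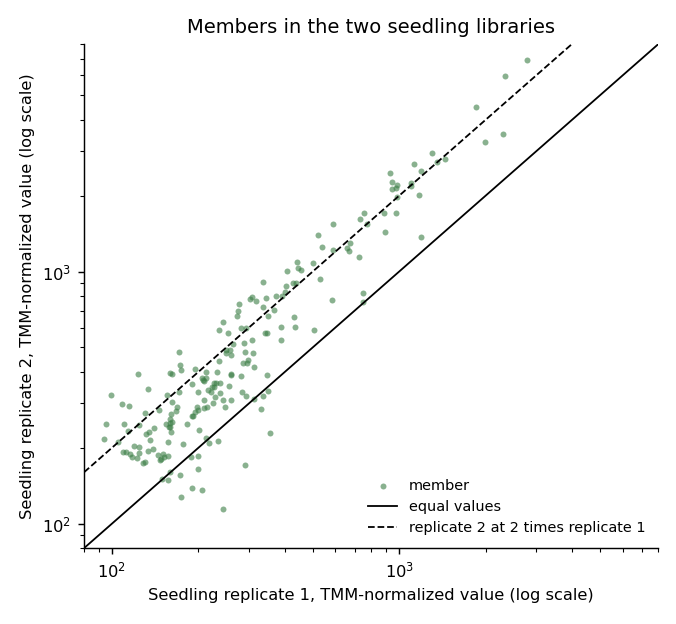
Each point is 1 of the 200 genes, with its TMM-normalised value in seedling replicate 1 on the x axis and in replicate 2 on the y axis, both logarithmic. Of the 200 points, 184 lie above the solid line of equal values and 63 on or above the dashed line of a ratio of 2.

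The SD over the 2 seedling libraries had a median of 37.0% of the mean, against 3.33% in the silique-preferred and 4.62% in the flower-bud-preferred set in their own tissues. In all 200 genes both seedling libraries exceeded the 4 other libraries, as in 18.6% of the 52918 genes tested. The rule used these same values, so nothing is read from that count. In 102 genes the lower seedling library was at least 4 times the highest other library, and the smallest such ratio was 1.96. With seedling replicate 1 in place of the mean, 107 of the 200 genes still reached a ratio of 4 to both other tissues, and 93 did not. These 107 had a median replicate 2 over replicate 1 of 1.47 and a median seedling mean of 266, while the 93 had medians of 2.04 and 439. In the 93, replicate 2 had to exceed replicate 1 for the mean to reach the ratio. The difference in replicate ratio thus follows from the split and is not a result. Replicate 2 is also the shallower library, and the part of depth in the gap between replicates was not tested.

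The largest gap between seedling libraries belonged to ZS11A09G060250 on chromosome A9 (43223386 to 43224639, plus strand), with 99.6 in replicate 1 and 325 in replicate 2, a ratio of 3.27. It stood at 47.1 and 50.8 in silique and at 39.4 and 34.4 in flower bud. ZS11A09G015640, also on A9 (9547944 to 9549529, minus strand), had 124 and 391 in seedling, 44.2 and 49.9 in silique, and 22.9 and 18.0 in flower bud. Both genes overlap 1 other gene model. In 16 genes replicate 2 was not above replicate 1. ZS11C03G013510 on C3 (6958113 to 6963603, minus strand; it overlaps 1 model) had 245 and 114 in seedling, 3.57 and 4.93 in silique, and 1.12 and 2.07 in flower bud. ZS11A03G011710 on A3 (5504835 to 5509390, minus strand) had 291 and 172 in seedling, 2.92 and 2.56 in silique, and 1.77 and 3.02 in flower bud. These last 2 genes were low outside the seedling, at 1.12 to 4.93.

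The comparison of silique with flower bud was not used to choose the genes. Genes that passed the test were mostly higher in silique. Of the 130 genes in the count table, all of which passed the low-count filter, 53 were higher and 3 lower in silique (edgeR quasi-likelihood test with Benjamini-Hochberg adjustment over 34296 genes, with calls at an adjusted p under 0.05 and a log2 fold change of 1 or more in size). That is 40.8% higher and 2.31% lower, where 14.5% of all genes tested were higher and 13.0% lower. The median log2 fold change was 0.86 over the 130 genes, with quartiles of 0.41 and 1.56, and -0.01 over all genes. Positive values were seen in 112 of 130 genes, against 49.4% of all genes. The fit makes 1 estimate of spread per gene over all 6 libraries, so a gap between seedling libraries also enters these p-values. With silique and flower bud libraries only, 55 genes were higher and 3 lower. Over all genes the numbers were then 5188 and 4957, beside 4964 and 4450 with all 6 libraries. Without silique replicate 1 the number of lower genes was 1, and without any 1 silique or flower bud library the number of all genes called lower was 2674 to 2845 in place of 4450.

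Reads recovered from the normalised table extended the test to all 200 genes and all 19 chromosomes. With them 82 genes were higher and 5 lower in silique (41.0% and 2.50%), where 14.2% and 12.4% of 52918 genes were higher and lower, and 113 were not called. The lean toward silique was shared by other genes abundant in seedling. Of the 595 other genes with a seedling mean at least as high, 254 (42.7%) were higher and 10 (1.68%) lower in silique, with a median log2 fold change of 0.87, beside 0.89 for the 200. Among the 107 genes that reached a ratio of 4 in seedling replicate 1 alone, 47 (43.9%) were higher and 5 (4.67%) lower.

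The scaling matters for these sizes. On the authors' scale the median log2 ratio of silique to flower bud was -0.13 over all genes tested and 0.76 over the 200, while the edgeR medians on recovered reads were -0.00 and 0.89. On that scale both silique libraries were above both flower bud libraries in 162 of the 200 genes (81.0%) and below both in 28 (14%), where 32.7% of all 52918 genes tested were above and 43.8% below. Of the 595 other genes as abundant in seedling, 79.8% were above.

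**Figure D3:**
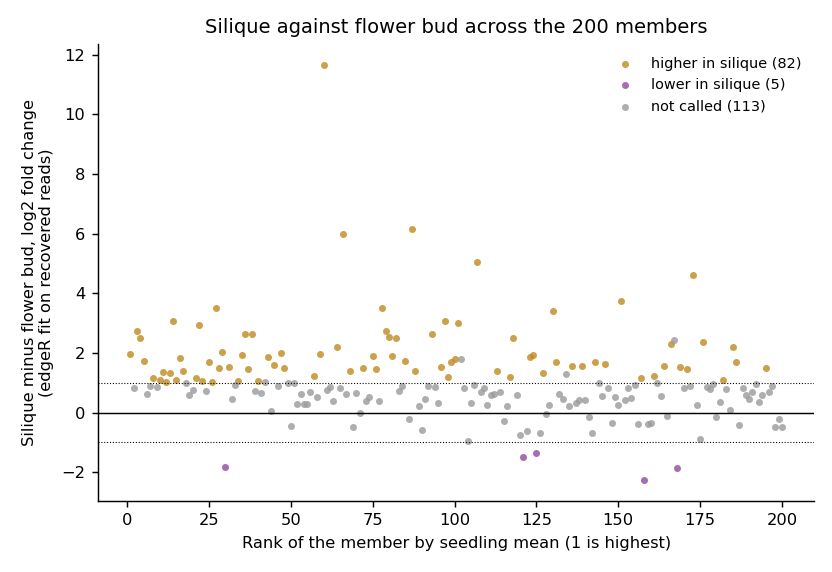
Each point is 1 of the 200 genes, placed by its rank of seedling mean (x axis) and its log2 fold change of silique minus flower bud from the edgeR fit on recovered reads (y axis); dotted lines mark 1 and -1. Genes called higher in silique (82) lie across all ranks and are most frequent at the left, and 5 genes are called lower. Other genes as abundant in seedling are not drawn and were not split by rank.

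By rank of seedling mean, genes called higher in silique with recovered reads numbered 32 of the first 50 and 23 of the next 50. They numbered 14 of the third 50 and 13 of the last 50. Over all genes tested, 14.2% were called higher. Of the other genes as abundant in seedling, 42.7% were called higher over all ranks together. Those genes were not split by rank. Whether the fall with rank is particular to the chosen genes or general to abundant genes was therefore not tested. The 82 genes called higher had a median of 54.7 in silique and 16.3 in flower bud, a gap that the call itself requires. The 113 genes not called had 39.3 in silique and 36.1 in flower bud. Median replicate 2 over replicate 1 in seedling was 1.76 in the genes called higher and 1.65 in those not called. By subgenome, 39 of 99 A genes and 43 of 101 C genes were higher in silique, with median log2 fold changes of 0.87 and 0.89. Both shares lay near the 42.7% of the other abundant genes.

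ZS11A07G023900 on chromosome A7 (19674762 to 19678071, plus strand) had the largest difference among the 130 genes of the count table. It stood at 34.2 and 31.5 in silique and had 0 reads in both flower bud libraries, and in seedling at 277 and 743. With each read counted singly, silique was at least 274-fold higher than flower bud, taken against 3 counts over both flower bud libraries (edgeR adjusted p = 5.16e-05). If reads were counted in pairs, this bound would be lower. The gene was thus detected in both other tissues and had no read in flower bud. ZS11A09G015740 on A9 (9635498 to 9638907, minus strand) followed among these 130 genes, with 19.2 and 20.5 in silique, 0.482 and 1.27 in flower bud, and 95.7 and 248 in seedling. Its log2 fold change was 4.60 (SE 0.56, edgeR adjusted p = 1.89e-04). Both silique libraries were above both flower bud libraries.

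Among the most abundant genes, ZS11C03G073320 was higher in silique by a log2 fold change of 1.97 (SE 0.41, edgeR adjusted p = 0.00418), a call that was lost without any 1 of the silique or flower bud libraries, at values between 1.94 and 2.13. ZS11A08G022310 was higher by 2.74 (SE 0.40, edgeR adjusted p = 6.12e-04). For ZS11C04G013970, tested on recovered reads, the value was 0.82 (SE 0.41, edgeR adjusted p = 0.144), which did not pass. ZS11A04G003110 on A4 (2127078 to 2171718, plus strand), named after its values were seen, had a model of 44641 bp and stood at 38.9 and 40.1 in silique, 4.17 and 3.98 in flower bud, and 209 and 288 in seedling. It was higher in silique by 3.39 (SE 0.24, edgeR adjusted p = 5.97e-06).

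The 3 genes of the count table that were lower in silique differed in level. ZS11A07G034260 on A7 (25455692 to 25470418, plus strand) stood at 0 and 0.788 in silique, 2.09 and 1.75 in flower bud, and 158 and 241 in seedling. Its log2 fold change was -2.27 (SE 0.76, edgeR adjusted p = 0.0392), and -1.15 with an adjusted p of 0.204 by edgeR without silique replicate 1, -7.50 without silique replicate 2. The call was also lost without either flower bud library and with DESeq2 (adjusted p = 0.27). ZS11C02G067030 on C2 (64472560 to 64474205, plus strand) stood at 3.41 and 4.73 in silique, 15.9 and 16.1 in flower bud, and 110 and 249 in seedling. Its log2 fold change was -1.86 (SE 0.39, edgeR adjusted p = 0.00416), and -1.63 with an adjusted p of 0.0778 by edgeR without silique replicate 1. Both genes overlap 1 other model. The remaining gene, ZS11C02G065220 on C2 (63148378 to 63151444, plus strand), had 39.1 and 38.0 in silique, 162 and 132 in flower bud, and 659 and 1238 in seedling. It fell by 1.81 on the log2 scale (SE 0.31, edgeR adjusted p = 0.00139) and overlaps no model. Recovered reads added ZS11C05G004420 and ZS11C05G052330, both on chromosome C5, with log2 fold changes of -1.34 and -1.49. ZS11C05G052330 stood at 14.0 and 14.0 in silique, 40.8 and 44.7 in flower bud, and 190 and 359 in seedling, and its call was lost without either silique library, at -1.48.

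ZS11C05G011220 on C5, named after its values were seen, had the highest ratio of seedling to the other tissues, 465. It stood at 350 and 335 in seedling, at 0.487 and 0.985 in silique from 6 and 10 reads, and had 0 reads in flower bud. With each read counted singly, seedling was at least 2856-fold and silique at least 6-fold higher than flower bud against 3 counts over both flower bud libraries. Both bounds would be lower if reads were counted in pairs, and the bound for silique leaves out the error of its few reads. Its seedling libraries lay close together, unlike those of most of the set, with a ratio of 0.959.

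The 200 genes were spread over all 19 chromosomes. A chromosomes held 99 and C chromosomes 101. The A share of 49.5% stood beside 44.5% of all listed genes and 46.7% of the other genes as abundant in seedling. Over A and C genes the median seedling mean was 292 in A and 325 in C, the ratio to the higher other tissue 5.91 and 6.13, and replicate 2 over replicate 1 in seedling 1.72 and 1.70.

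Chromosomes C6 and A7 held the most. C6 carried 21 of the 200 genes and A7 carried 17, together 38 genes from chromosomes with 9.14% of the listed genes. Of the genes as abundant in seedling, the rule took 48.8% on C6 and 42.5% on A7, against 16.4% to 34.8% on the other 17 chromosomes. Among all 3276 genes kept before ranking, C6 held 171 and A7 held 145, near their shares of the listed genes (4.84% and 4.30%). The high shares on C6 and A7 were thus seen only after the ranking by abundance. In the sets found by the same rule, C6 held 6 silique-preferred and 8 flower-bud-preferred genes, and A7 held 7 and 12. These chromosomes are known to share large collinear blocks in oilseed rape. The difference between chromosomes was described and not tested.

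**Figure D4:**
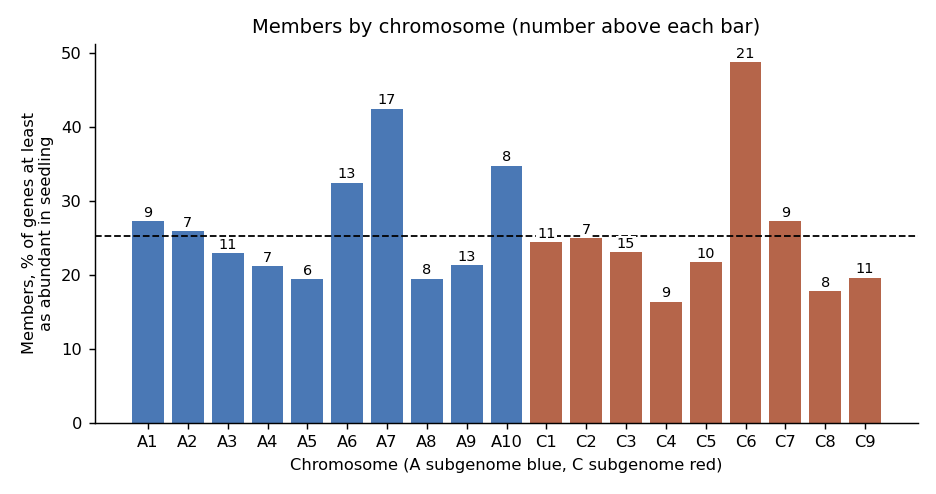
Bars give the share of genes with a seedling mean of at least that of the last member that met the rule on each chromosome, in percent from 0, with the number of members above each bar. C6 stands at 48.8% and A7 at 42.5%, above the dashed line at 25.2% for all chromosomes together.

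A single pair of neighbours was found on A7 and 0 on C6. Past the middle of the listed gene order lay 13 of the 17 genes on A7 and 12 of the 21 on C6. Seedling means ran from 151 to 1342 on A7 and from 150 to 984 on C6. In silique against flower bud, 9 of the 17 A7 genes were higher and 1 lower, and 10 of the 21 C6 genes were higher and 0 lower, by recovered reads, beside 41.0% higher and 2.50% lower in the whole set and 14.2% and 12.4% over all genes tested. In seedling replicate 1 alone, 10 of the A7 genes and 12 of the C6 genes reached the ratio of 4.

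Among listed genes, 5 pairs of direct neighbours were found and no longer run. At least 1 direct neighbour that met the ratio at any abundance was found for 24 genes (12%), beside 9.44% of the other genes as abundant in seedling and 7.88% of the other listed genes. The pairs on A5 and on C4 held the most abundant of these genes.

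On A5, ZS11A05G010230 (5879369 to 5880391, minus strand) and ZS11A05G010240 (5880954 to 5881809, plus strand) lay back to back with 562 bp between them. ZS11A05G010230 stood at 928 and 2467 in seedling, 315 and 322 in silique, and 146 and 126 in flower bud. ZS11A05G010240 stood at 590 and 1545 in seedling, 113 and 120 in silique, and 12.5 and 9.71 in flower bud. Both were higher in silique than in flower bud, by 1.34 (SE 0.39, edgeR adjusted p = 0.0229) and 3.51 (SE 0.43, edgeR adjusted p = 1.99e-04). These fits include the wide gap between seedling libraries. With silique and flower bud libraries only, the value of ZS11A05G010230 was 1.35 (edgeR adjusted p = 1.07e-12). The call of ZS11A05G010230 was lost without any 1 of the silique or flower bud libraries, at values from 1.30 to 1.54.

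On C4, ZS11C04G013960 lay beside ZS11C04G013970. It stood at 948 and 2267 in seedling, 264 and 252 in silique, and 33.2 and 33.1 in flower bud, and was higher in silique by 3.08 (SE 0.39, edgeR adjusted p = 2.58e-04 on recovered reads). On A5 the ratio of ZS11A05G010230 to ZS11A05G010240 was 1.57 and 1.6 in seedling, 2.79 and 2.68 in silique, and 11.7 and 13.0 in flower bud. On C4 the ratio of ZS11C04G013970 to ZS11C04G013960 was 2.47 and 2.64 in seedling, 2.31 and 2.44 in silique, and 12 and 10.8 in flower bud. In each pair the flower bud ratio was above that of both other tissues in every library. Whether the pairs are copies of each other cannot be read from the files, and reads shared between such copies would make single levels uncertain.

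**Figure D5:**
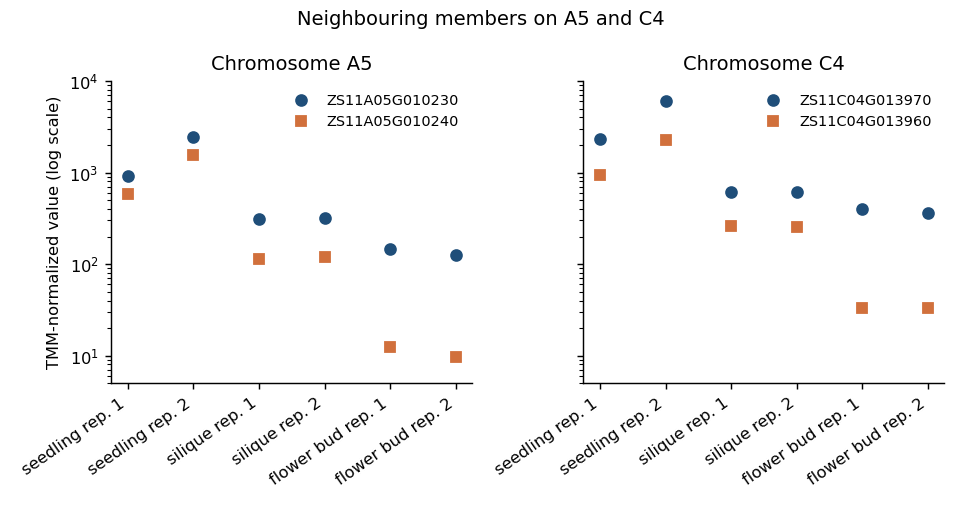
Points give the TMM-normalised value (log axis) of each gene of the neighbouring pairs on chromosomes A5 and C4 in each library. In both panels the squares fall further below the circles in flower bud than in seedling or silique, for example 12.5 against 146 in flower bud replicate 1 on A5.

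On C1, ZS11C01G012910 (8272848 to 8275611, plus strand) stood at 281 and 384 in seedling, 50.6 and 50.4 in silique, and 50.2 and 45.04 in flower bud. Its neighbour ZS11C01G012920 (8288956 to 8291337, plus strand) stood at 748 and 826 in seedling, 49.98 and 46.3 in silique, and 8.83 and 8.12 in flower bud. ZS11C01G012910 did not pass between silique and flower bud (log2 fold change 0.20, edgeR adjusted p = 0.478), while its neighbour was higher in silique by 2.62 (SE 0.23, edgeR adjusted p = 2.26e-05). On A7, ZS11A07G025170 (20310431 to 20315298, minus strand) had 437 and 905 in seedling, 147 and 140 in silique, and 161 and 140 in flower bud. Its neighbour ZS11A07G025180 (20324189 to 20329915, minus strand) had 312 and 312 in seedling, 13.8 and 12.4 in silique, and 12.2 and 10.8 in flower bud. Neither passed between silique and flower bud, with edgeR adjusted p of 0.920 and 0.252.

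On C5, ZS11C05G004400 had 160 and 271 in seedling, 42.5 and 40.0 in silique, and 23.4 and 22.2 in flower bud. Its neighbour ZS11C05G004420 had 225 and 301 in seedling, 15.1 and 14.8 in silique, and 42.5 and 40.1 in flower bud. By recovered reads ZS11C05G004420 was lower in silique (log2 fold change -1.34, SE 0.21, edgeR adjusted p = 8.40e-04). For ZS11C05G004400 the log2 fold change was 0.98 (SE 0.25, edgeR adjusted p = 0.0120), just under the minimum of 1 (1.01 and called with RLE factors). The neighbours thus had opposite orders of silique and flower bud, with no overlap between libraries in either gene. Over all genes tested, silique was above flower bud without overlap in 32.7% and below in 43.8%. Both C5 genes adjoin in the order of listed genes, and their positions are not in the count table.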

How the data were processed

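The members and the lists were chosen with earlier results of these data known. The count table deposited by the authors lists raw counts per gene model in the column layout of featureCounts, per the file headers, and stops inside C3. The deposited normalised signal was scaled by the authors using TMM, as its file name says; each library's values were whole multiples of 1 step. Dividing by that step gave whole reads in 100% of values (tolerance 0.05 reads), and 100% of shared genes equalled the count table. The submitters' processing notes name HISAT2, edgeR, SAMtools, featureCounts and GATK; for versions, settings and genome build: not given in the sources used here.

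Silique was tested against flower bud on these counts using edgeR 4.0.16 under R 4.3.3 (TMM; filterByExpr, minimum count 10; quasi-likelihood F test, all 6 libraries, 3 residual degrees of freedom), and again on recovered reads. SE is the log2 fold change divided by the square root of F. DESeq2 1.42.0 and limma 3.58.1 (log2 of value + 1 or + 0.1) were alternatives. With 1 library left out, the lone library of a tissue is assumed to vary like the others. Genes were named by rank of seedling mean, rule edges, size of silique-to-flower-bud change, replicate ratio, level per kb and adjacency; genes named otherwise were chosen after their values were seen. Python 3.11.15, pandas 2.3.3 and matplotlib 3.10.9 were used.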

Additional observations from a re-analysis of the deposited data

How the results depend on the processing

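Membership depended strongly on the settings. Of the 200 genes, 33.5% remained with a ratio of 8, 43.0% with a ratio of 2, 51.0% when the lower seedling library had to be 4 times the highest other library, and 72.0% with TMM factors recomputed on recovered reads. Leaving out 1 library kept between 53.5% (without seedling replicate 2) and 99.5%, with 65.5% without seedling replicate 1. Ranking by level per kb kept 95 of the 130 genes in the count table. Calls between silique and flower bud are given as numbers of genes, which do not show whether the same genes were called. They cannot be set against the shares of membership. In fits that kept all 6 libraries or all 4 of silique and flower bud, 41 to 57 of the 130 genes were higher in silique. Over all 200 genes, 65 to 88 were higher in such fits. Without the fold change minimum the 130 gave 71, where calls over all genes rose from 4964 to 6721. Fewer genes were called higher without any 1 silique or flower bud library, among the 130, the 200 and all genes alike. Restricting to genes at a ratio of 4 in seedling replicate 1 alone left fewer genes, of which 31 (deposited counts) and 47 (recovered reads) were higher. Genes lower in silique numbered 1 to 3 without 1 replicate and 2 to 5 with recovered reads, the lowest both without silique replicate 1. The replicate block gave 55 higher and 3 lower; deviations of same-numbered libraries correlated between -0.0264 and 0.00255. Same numbers do not mark paired plants in the labels. Halving the counts, chosen after seeing the data, gave 52 and 3. Small differences changed sign in ZS11A07G025170, at -0.07 with limma at both pseudocounts, and ZS11C04G060580, at 0.03 without silique replicate 1 on recovered reads. Depth limits values near 1 read, which is worth 0.273 in seedling replicate 2.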
